A study of Mus musculus with 6 samples.

Results

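The somatic cells that lie between and around the seminiferous tubules were selected from droplet single-cell RNA sequencing of mouse testis: Leydig cells, the contractile cells that wrap the tubules, and matrix-producing stromal cells. A cell, meaning a barcode of the deposited matrices, was taken when it had at least 1000 unique molecular identifiers (UMIs, counts of single captured transcripts), at least 3 of 13 marker genes with a UMI, and at least 0.3% of its UMIs from these 13 genes. The genes were the steroidogenic genes Cyp17a1, Cyp11a1, Hsd3b1, Insl3 and Star, the smooth muscle genes Acta2, Myh11 and Tagln, and the matrix genes Dcn, Igfbp7, Col1a2, Col3a1 and Mgp. The rule took 165 of 48939 barcodes, or 0.337% (exact 95% interval 0.288 to 0.393%, which covers counting error only). Because the 13 genes chose the cells, their levels here, and those of every gene set against the remaining cells, are descriptions without a test. Only the difference between diets, which the rule did not use, was tested. For the 13 genes, that difference also depends on which cells the rule took in each library.

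The libraries came from testes of C57BL/6 wild-type mice (C57BL/6N in the methods of the study) at 8 weeks of age. The mice had been fed a high-fat diet (HFD, 3 libraries) or a low-fat diet (LFD, 3 libraries) for 2 weeks, each library from 1 mouse according to those methods, in a study that asked whether the diet alters developing germ cells. Each library held between 5753 and 11095 barcodes and between 39196921 and 95845514 UMIs. The names of the deposited matrices carry the other diet in all 6 libraries. Diet was taken from the sample labels, and every difference between diets given here would change its sign if the matrix names were right. Of the 165 strings of bases that tag the selected cells, 3 also occurred in another library and 0 tagged selected cells of a pair of libraries.

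Leydig cells take up or make cholesterol, carry it into mitochondria with the help of StAR and turn it into testosterone under the control of luteinizing hormone. Peritubular myoid cells form a thin contractile sheath around each tubule, lay down part of its basement membrane and move sperm along it. Stromal cells of the interstitium secrete collagens and the small proteoglycan decorin and lie among vessels, macrophages and Leydig cells.

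Promoters of Acta2 and Myl9, which stood out in the contractile cells, and of Insl3, the most abundant of the 13 genes in the Leydig cells, are shown because the text below compares these sets. The sequences are RefSeq entries (GRCm38.p6), run 5′ to 3′ from 250 bases before the annotated start to 50 bases after it, and lie at chr19:34255324-34255623 on the minus strand (Acta2), chr2:156775214-156775513 on the plus strand (Myl9) and chr8:71689002-71689301 on the plus strand (Insl3). Capitals mark matches to the CArG box, the site of serum response factor, allowing at most 1 G or C in its core, for Acta2 and Myl9, and CAAGGTC, the form of the steroidogenic factor 1 site that was searched, for Insl3.
Acta2: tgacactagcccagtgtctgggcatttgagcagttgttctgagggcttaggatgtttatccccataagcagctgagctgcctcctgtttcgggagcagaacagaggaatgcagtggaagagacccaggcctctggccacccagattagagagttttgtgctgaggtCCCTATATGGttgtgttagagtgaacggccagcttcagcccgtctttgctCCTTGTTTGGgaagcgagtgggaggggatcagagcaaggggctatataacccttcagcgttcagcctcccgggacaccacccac
Myl9: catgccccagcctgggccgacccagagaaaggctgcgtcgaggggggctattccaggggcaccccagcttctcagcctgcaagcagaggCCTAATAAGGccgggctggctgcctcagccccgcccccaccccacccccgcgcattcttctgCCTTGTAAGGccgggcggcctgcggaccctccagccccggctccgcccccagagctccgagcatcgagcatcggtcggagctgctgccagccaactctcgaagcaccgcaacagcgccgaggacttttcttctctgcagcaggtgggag
Insl3: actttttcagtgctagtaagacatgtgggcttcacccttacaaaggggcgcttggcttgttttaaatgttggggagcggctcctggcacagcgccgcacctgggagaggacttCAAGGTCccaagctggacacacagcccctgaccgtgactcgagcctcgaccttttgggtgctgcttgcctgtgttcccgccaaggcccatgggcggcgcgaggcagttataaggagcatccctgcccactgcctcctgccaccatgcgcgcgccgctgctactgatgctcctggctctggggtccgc

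Both strands were searched. A gene was counted if any of its promoters had a match. The strict CArG box, with only A and T in its core, was in 1.81% of the 27025 genes with a RefSeq promoter. Among contractile genes it was in 3 of the 16 that had a promoter there (Myl6, Myl9 and Srf). The relaxed form was adopted after the strict form was not found in the Acta2 window. It was in 11.3% of all genes with a promoter and in 5 of the 16 contractile genes (Acta2, Myl6, Myl9, Pcp4 and Srf), against 4 of 21 matrix genes and 2 of 23 Leydig genes. Acta2 had CCCTATATGG beginning 84 bases before the start and CCTTGTTTGG beginning 34 bases before it. Myl9 had the strict match CCTAATAAGG beginning 161 bases before the start and CCTTGTAAGG beginning 99 bases before it. CAAGGTC was in 4.51% of all genes with a promoter, in 3 of 23 Leydig genes (Insl3, Klk1b21 and Ptgds), in 0 of 16 contractile genes and in 0 of 21 matrix genes. In Insl3 it began 137 bases before the start. Such matches describe letters in a window and not bound sites.

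The selected cells were deeper than the rest. Their median was 6853 UMIs (range 1278 to 36311) and 2912 genes, against 2721 UMIs and 1521 genes in the remaining 48774 barcodes. The 13 genes made up a median of 2.05% of a selected cell's UMIs (lowest 0.315%, highest 5.44%), and 45309 of the remaining barcodes had none of them. Just inside the threshold the cells held 0.315, 0.327, 0.336, 0.339 and 0.466%, and just outside it, among 44 barcodes with at least 3 of the genes, the highest held 0.284, 0.282 and 0.275%. Of the selected cells, 6 held less than 0.6%.

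Each cell was assigned to the set of marker genes with the most UMIs in it: steroidogenic (called Leydig cells here), contractile or matrix. This gave 123 contractile cells (74.5%), 32 matrix cells (19.4%) and 10 Leydig cells (6.06%), with no ties. In 12 cells, 9 of them contractile, the leading set had less than 2 times the UMIs of the next. The split depends on how the genes are weighted. When each gene was divided by its mean over the selected cells, 97 of the 165 cells kept their set and the counts became 56 contractile, 98 matrix and 11 Leydig cells.

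The contractile cells carried a nearly complete smooth muscle programme. Levels are given as CPM, the UMIs of a gene per 1000000 UMIs of the pooled cells, which count 3′ tags and so are not divided by transcript length. Acta2 (chr19:34241090-34255590, minus strand, in the GENCODE annotation of GRCm38), the gene of smooth muscle actin, was at 11444 CPM in contractile cells, 53.4 CPM in matrix cells and 0 in Leydig cells, against 2.66 CPM in the remaining barcodes. All 123 contractile cells had Acta2, and per cell its level ran from 1401 to 24561 CPM with a median of 11228 CPM. Tagln, an actin-bundling protein, stood at 3684 CPM (123 cells) and Myh11, the smooth muscle myosin heavy chain, at 2347 CPM (122 cells).

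Outside the 13 genes, the same set was led by parts of the contractile machinery that the rule did not name. The myosin light chain Myl9 was at 4428 CPM in contractile cells against 160 in matrix and 72.3 in Leydig cells. The tropomyosins Tpm2 and Tpm1 reached 3155 and 3114 CPM, caldesmon (Cald1) 2443 CPM and the myosin light chain kinase Mylk 1936 CPM. Desmin (Des, 847 CPM, 118 cells) and calponin (Cnn1, 664 CPM, 116 cells) were each found in most of the 123 cells, and Cnn1 had no UMI in a matrix or Leydig cell. Myocd, the coactivator of serum response factor, had 76.5 CPM and was seen in 49 contractile cells and in no other selected cell. Summed, the 17 genes of the contractile apparatus list made up 2.43% of contractile UMIs, 0.29% of matrix UMIs and 0.136% of Leydig UMIs.

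Basement membrane and signalling genes accompanied this programme. Sparc, a collagen-binding matrix protein, was at 3306 CPM in contractile cells, close to 3073 CPM in matrix and 2563 CPM in Leydig cells. The basement membrane collagen Col4a1 was at 743 CPM, biglycan (Bgn) at 925 CPM and the metalloproteinase inhibitor Timp3 at 1261 CPM, the last against 119 CPM in matrix cells. Cyp26b1, which degrades retinoic acid, reached a pooled 1370 CPM. Ptch1, the receptor of desert hedgehog, was at 339 CPM. Growth factors for spermatogonia were sparse: Gdnf was detected in 11 contractile cells (12.6 CPM), Fgf2 in 52 (71.2 CPM) and Csf1 in 53 (77.5 CPM).

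**Figure D1:**
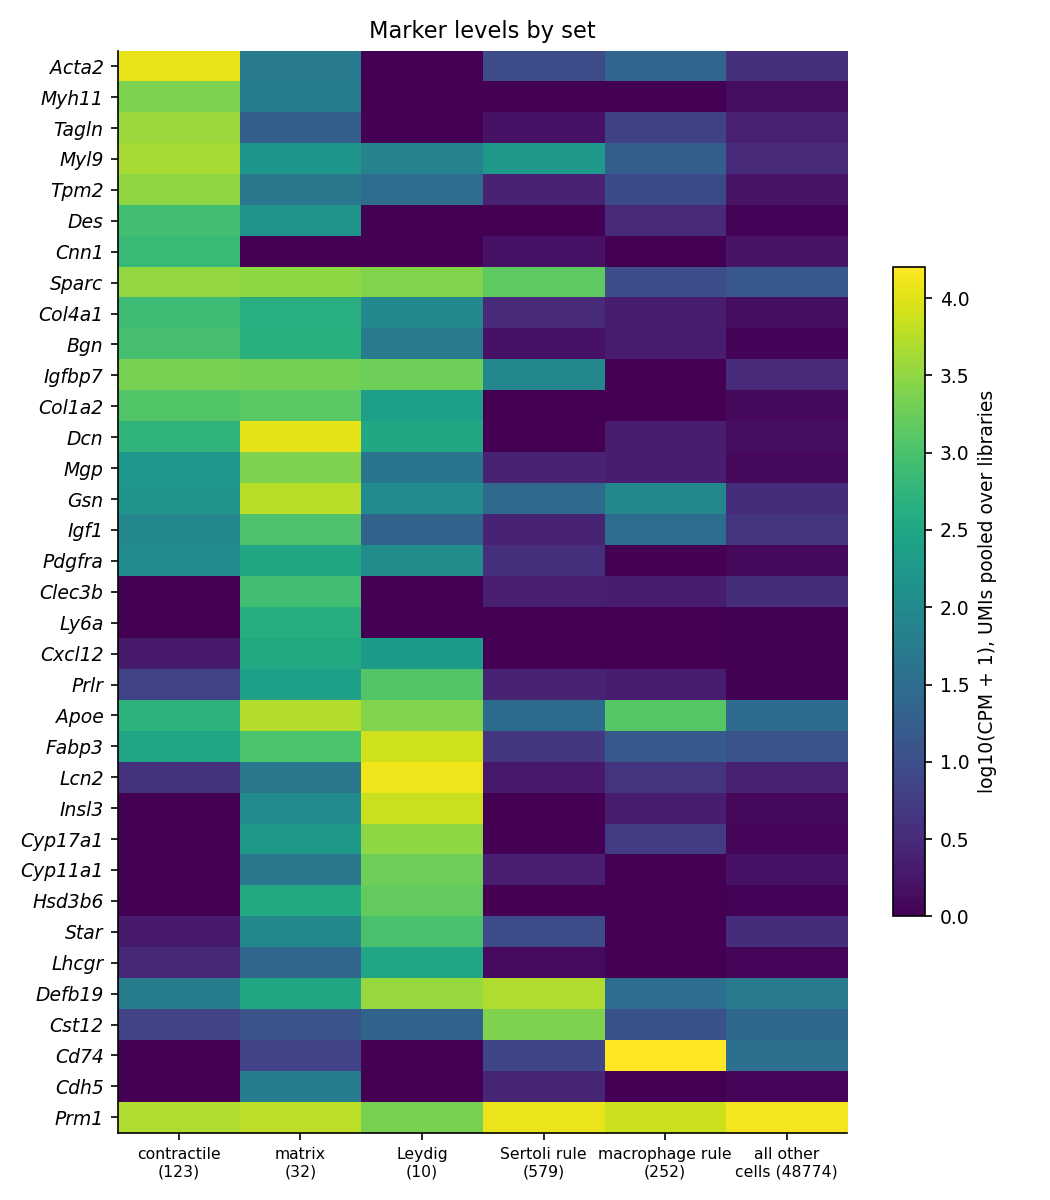
Levels of marker genes (rows) in the contractile, matrix and Leydig cells and in the remaining barcodes (columns, with Sertoli-rule and macrophage-rule barcodes between). Colour gives log10 of pooled CPM plus 1. Acta2, Myh11 and Tagln fill the contractile column, Dcn and Mgp are highest in the matrix column, and Cyp17a1, Insl3 and Lcn2 are highest in the Leydig column.

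Contractile and matrix cells shared collagens but differed in decorin. Dcn (chr10:97479609-97518143, plus strand) was at 10672 CPM in matrix cells and 564 CPM in contractile cells, where 104 of 123 cells still had it. The highest contractile cell had 1693 CPM of Dcn, a level exceeded by 28 of the 32 matrix cells, whose median was 8247 CPM (range 0 to 29684). Col1a2, a chain of type I collagen, was at 1130 CPM in contractile and 1358 CPM in matrix cells, and Igfbp7, an insulin-like growth factor binding protein, at 2180 and 2100 CPM. Mgp, an inhibitor of calcification, differed more, at 175 against 2432 CPM. Acta2 and Dcn were found together in 104 contractile cells but in 2 matrix cells, while Acta2 and Cyp17a1 were found together in 0 of the 165.

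**Figure D2:**
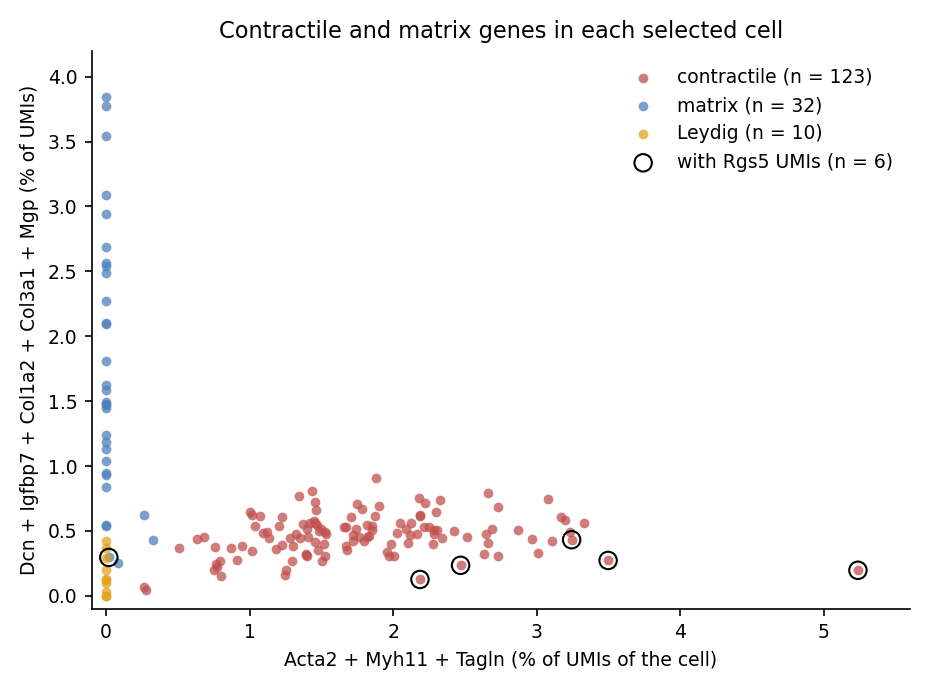
Each point is a selected cell, with the percent of its UMIs from Acta2, Myh11 and Tagln on the x axis and from the 5 matrix genes on the y axis, coloured by set, and rings mark the 6 cells with Rgs5. The 123 contractile cells spread along the x axis at low matrix shares, most of the 32 matrix cells lie at 0 on the x axis, and the 10 Leydig cells lie near the origin.

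Matrix cells had a profile of their own. Besides Dcn they were high in gelsolin (Gsn, 5689 CPM against 156 in contractile cells), the lipid carrier Apoe (5256 against 527), the aggrecanase Adamts5 (1299 against 187) and the complement inhibitor Serping1 (1180 against 306). Igf1, a growth factor, was at 1056 CPM in 27 of the 32 cells. The chemokine Cxcl12 (356 CPM, 21 cells) and the Kit ligand gene Kitl (214 CPM, 17 cells) were also found there, with 1 Cxcl12 UMI in all contractile cells.

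Genes known from fibroblasts of vessel walls and connective tissue separated some matrix cells from the others. Clec3b (tetranectin, 813 CPM) was found in 19 cells and Ly6a (Sca-1, 409 CPM) in 14, and neither had a UMI in a contractile or Leydig cell. Either gene was present in 23 cells and both in 10. Dpt or Pi16 was present in 9 cells, each of which also had Clec3b or Ly6a. Prlr, the prolactin receptor, was in 15 matrix cells, 11 of which had Clec3b. The fibroblast receptor Pdgfra was in 24 matrix cells (326 CPM). Of the 32 matrix cells, 4 had a UMI of Acta2 or Myh11.

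Within the matrix set the per-library level of Dcn ranged widely. It was 5743, 18799 and 3954 CPM in HFD replicates 1 to 3 and 634, 11257 and 10289 CPM in LFD replicates 1 to 3, with the LFD replicate 1 value resting on 4 UMIs from 2 cells. The diets overlapped. One matrix cell of HFD replicate 3, with 17309 UMIs, carried the matrix and Leydig markers together: it had 26 UMIs of Dcn, 19 of Ly6a and 17 of Prlr, with 31 of Cyp17a1, 18 of Insl3, 10 of Hsd3b1, 8 of Cyp11a1, 15 of Star and 61 of Hsd3b6. Scrublet, which scores barcodes for resemblance to simulated doublets, did not place it among its highest scores.

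The 10 Leydig cells carried genes of every step from cholesterol to testosterone. Cyp17a1 (chr19:46667165-46673172, minus strand), which makes androgens from progestins, was at 3079 CPM and present in all 10 cells. Insl3 (chr8:71689214-71690575, plus strand), which encodes a peptide hormone of Leydig cells, was at 7388 CPM in all 10. Cyp11a1, which cleaves the cholesterol side chain, was at 1881 CPM (8 cells), its electron donor Fdx1 at 1736 CPM (9 cells) and Star at 992 CPM (7 cells). Hsd3b6 (chr3:98805504-98814443, minus strand) was at 1581 CPM and Hsd3b1 (chr3:98852194-98859794, minus strand) at 444 CPM, in 7 cells each, and both encode enzymes that oxidize the steroid ring. These neighbouring genes are close copies of each other, so reads may have been divided between them. Hsd17b3, which makes testosterone from androstenedione, was at 754 CPM in 7 cells and had no UMI in a contractile or matrix cell.

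Hormone receptors were detected, and aromatase was not. Lhcgr, the luteinizing hormone receptor, was at 300 CPM in 7 cells, Prlr at 1199 CPM in 7 cells and Nr5a1, which encodes steroidogenic factor 1, at 114 CPM in 4 cells. The aromatase gene Cyp19a1 had 0 UMIs in the 10 cells. In contractile cells Cyp17a1, Cyp11a1, Hsd3b1, Insl3, Hsd3b6 and Hsd17b3 had 0 UMIs and Star had 1.

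Enzymes that feed cholesterol to this route were also high. The 19 genes of the cholesterol synthesis list made up 0.271% of Leydig UMIs, against 0.0343% in contractile, 0.0836% in matrix and 0.0679% in the remaining cells. Of the 141 UMIs behind the matrix value, 91 were in the HFD replicate 3 cell with both kinds of marker, and without it the matrix share was 0.0331%. Msmo1 (424 CPM), Fdps (413 CPM), Idi1 (258 CPM) and Sc5d (258 CPM) led the list. Soat1, which esterifies cholesterol for storage, was at 465 CPM, against 17.8 CPM in contractile and 65.2 CPM in matrix cells. The scavenger receptor Scarb1, which takes up cholesterol from lipoproteins, was at 72.3 CPM, and the fatty acid translocase Cd36 at 465 CPM, with no UMI of the latter in the other selected cells.

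By the ratio of Leydig to the other selected cells (offset 5 CPM), Lcn2 came before every gene, and Insl3 was next. Lcn2, the iron-siderophore carrier lipocalin 2, was at 12916 CPM in Leydig cells and 9.79 CPM in contractile and matrix cells together. Outside the 13 genes, and among genes with at least 100 UMIs in the selected cells, the next were Lrg1, Bhmt, Apoc1, Clu, Ptgds, Ass1 and Pld3. Bhmt, a methyltransferase of the methionine cycle, was at 2511 CPM in Leydig cells and 22.3 CPM in the others, where 24 of its 25 UMIs were in the HFD replicate 3 cell with both kinds of marker. Ptgds, the prostaglandin D synthase, was at 2005 CPM in Leydig cells. Fabp3, a fatty acid binding protein, was at 7998 CPM, against 300 CPM in contractile and 1038 CPM in matrix cells. All 75 of its UMIs in the matrix cells of HFD replicate 3 were in the cell with both kinds of marker. The median per cell was 5859 CPM in Leydig and 413 CPM in matrix cells. The opposite end held S100a6, Ccn2, Ckb, Csrp1, Hspb1, Flna, Smim41 and Des, of which S100a6 (2254 CPM) and Ccn2 (2078 CPM) were the most abundant in contractile cells.

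The Leydig cells were uneven in depth. Of the 10, 5 held 7341 to 23631 UMIs and 5 held 1278 to 3649. Insl3 was at 7834 CPM in the 5 deeper cells and 3506 CPM in the 5 shallower ones, whereas Prm1, a protamine gene of spermatids, was at 1325 and 9916 CPM. Mitochondrially encoded mRNAs made up 8.13% of UMIs in the deeper and 2.13% in the shallower cells. Single cells ranged from 1 UMI of Insl3 to 292, the latter in a cell of LFD replicate 3 with 21114 UMIs. Lcn2 also differed between deep cells, from 675 UMIs in a cell of HFD replicate 1 with 18676 UMIs to 3 in the HFD replicate 2 cell with 23631 UMIs. That cell carried 64 UMIs of Insl3, 46 of Prlr and 100 of the contractile and matrix genes of the rule, all of them matrix genes.

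**Figure D3:**
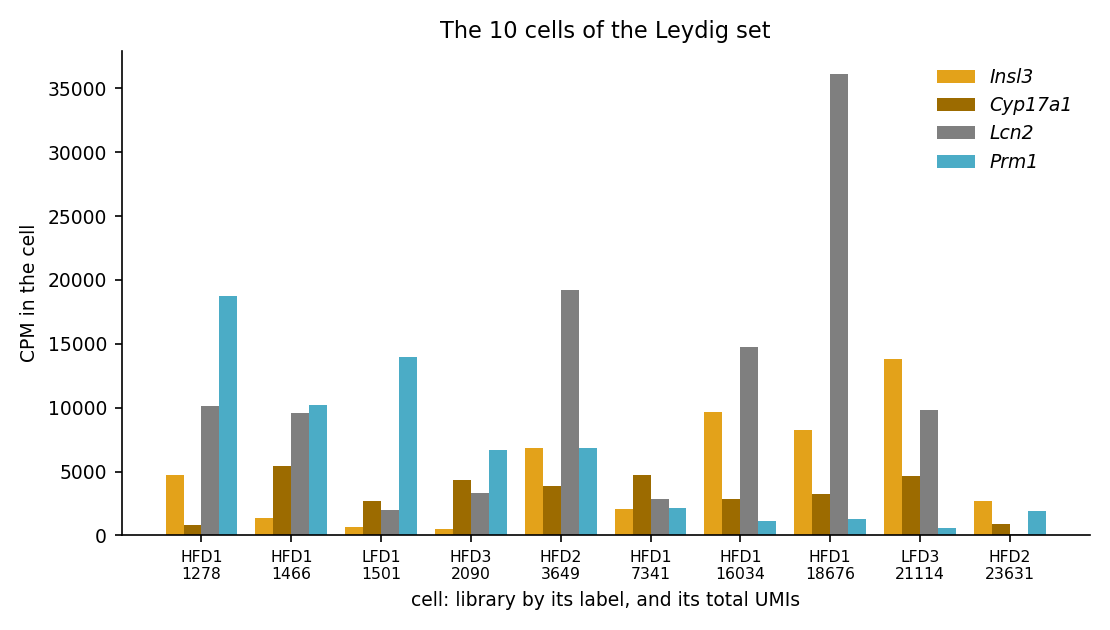
CPM (y axis) of Insl3, Cyp17a1, Lcn2 and Prm1 (bars) in each of the 10 Leydig cells (x axis, with library and total UMIs, ordered by UMIs). The 5 cells with 1278 to 3649 UMIs have taller Prm1 bars than the 5 with 7341 to 23631 UMIs, and the bar of Lcn2 is tallest in the HFD replicate 1 cell with 18676 UMIs.

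Markers of other cell types were sought in the selected cells. Of the 13 macrophage genes 5 were detected, at no more than 0.0169% of UMIs in any cell, and Adgre1, Csf1r, C1qa and Lyz2 were at 0. Haemoglobin genes were at 0. Of the 11 endothelial genes 6 were detected. Pecam1, Kdr and Cldn5 were at 0, Cdh5 was found in 7 matrix cells (59.3 CPM) and Esam in 5 contractile cells, and Vwf, Emcn, Flt1 and Cd93 were found in 1 or 2 cells each. Of the 14 Sertoli genes 4 were detected in the Leydig cells, at 0.486% of their UMIs, against 1.64% in Sertoli-rule barcodes outside the selected cells. Defb19 and Clu were in 9 of the 10 Leydig cells each, with 341 and 122 UMIs. Aard was in 3 (5 UMIs) and Cst12 in 2 (2 UMIs). The rest of the list, with Sox9, Wt1, Rhox5 and Amh among them, had 0. Of the 10 Leydig cells 4 passed a Sertoli rule of the same form as the rule used here, as did 1 matrix cell. Sox9 was seen in 129 and Amh in 25 of the 574 other barcodes that passed it. In those 574 barcodes (median 1958 UMIs) there were 49.9 UMIs of Cst12 and 45.3 of Cst9 per 100 of Defb19. In Leydig cells there were 0.587 and 0. Clu differed less, at 80.2 UMIs per 100 of Defb19 in the 574 barcodes and 35.8 in Leydig cells.

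Transcripts of spermatids were in every selected cell. Prm1 had 3 to 1376 UMIs (median 25) in each of the 165 cells, and its pooled level was between 19.2 and 41.8% of that in the remaining cells of the same library. As a measure of the same background for the markers of the rule, Acta2 had a UMI in 6.75% and Dcn in 0.397% of macrophage-rule barcodes (median 3399.5 UMIs), a cell type that should lack both, and in 1.88 and 0.246% of all remaining barcodes. The part of free RNA in the low values of single cells was not tested.

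A few cells of the contractile set stood apart by Rgs5. Rgs5 (chr1:169655501-169695813, plus strand), a regulator of G protein signalling known from pericytes and vascular smooth muscle, had 86 UMIs in 6 selected cells and 1 UMI in all other barcodes. Of the 6 cells, 5 were contractile and 1 was a matrix cell without Acta2 or Tagln. They came from HFD replicate 3 (1 cell), LFD replicate 2 (3 cells) and LFD replicate 3 (2 cells), with none in HFD replicates 1 and 2 or in LFD replicate 1. The matrix cell, from LFD replicate 2, had 19 UMIs of Rgs5 and 0 of Dcn. It had 6 UMIs of Abcc9, 4 of Kcnj8 and 4 of Cspg4, genes of the pericyte list. Its place in the matrix set rested on 11 UMIs of Igfbp7, 3 of Col1a2 and 2 of Col3a1.

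The 5 contractile cells with Rgs5 had a profile apart from the 118 without it, in genes of the rule and in others. Dcn had 0 UMIs in the 5, against 586 CPM and 104 of 118 cells in the others. Igfbp6, an insulin-like growth factor binding protein, was at 0 against 1580 CPM (115 of 118 cells), and Tcf21, a mesenchymal transcription factor, at 0 against 302 CPM (97 of 118 cells). Col3a1 and Mgp were also at 0 in the 5, while Igfbp7 was level at 2169 against 2180 CPM. Ptch1 was at 27.5 against 352 CPM. Biglycan was at 27.5 against 961 CPM. The contractile genes went the other way: Acta2 was at 17050 against 11221 CPM, Myh11 at 6013 against 2201 CPM and Tagln at 10241 against 3424 CPM. Crip1 (chr12:113146316-113153879, plus strand), which encodes a LIM-domain protein, was at 3707 against 9.80 CPM, so that 93.8% of the Crip1 UMIs of all contractile cells lay in these 5. Notch3, a receptor of vascular mural cells, was in 4 of the 5 and in 7 of the 118. Kcnj8 and Abcc9, channel genes of the same pericyte list, had 0 UMIs in the 5 and were in 9 and 21 of the 118. Esam, an adhesion molecule of vessels, had 14 UMIs in the 5 and 0 in the others. These are 5 cells from 3 libraries, and the comparison carries no test.

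Selected cells were found in all 6 libraries at uneven numbers. They numbered 68, 16 and 5 in HFD replicates 1 to 3 and 26, 36 and 14 in LFD replicates 1 to 3. As a share of barcodes this was 0.685, 0.197 and 0.0675% in the HFD libraries (mean 0.316% ± 0.325, SD, n = 3) and 0.392, 0.324 and 0.243% in the LFD libraries (0.320% ± 0.0746, SD, n = 3). The highest and the lowest library were both labelled HFD and the diets overlapped. The difference, HFD minus LFD, was −0.00374 percentage points (exact two-sided permutation test, p = 1, where 3 against 3 libraries cannot give less than 0.1). Within the replicate 1 libraries the difference was 0.292 and within the other 4 it was −0.152 percentage points.

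The makeup of the selection varied between libraries as much as its size. Contractile, matrix and Leydig cells numbered 58, 5 and 5 in HFD replicate 1, 8, 6 and 2 in HFD replicate 2 and 1, 3 and 1 in HFD replicate 3. The same counts were 23, 2 and 1 in LFD replicate 1, 24, 12 and 0 in LFD replicate 2 and 9, 4 and 1 in LFD replicate 3. The Leydig share of the selected cells was 7.35, 12.5 and 20% in the HFD libraries (mean 13.3% ± 6.36, SD, n = 3) and 3.85, 0 and 7.14% in the LFD libraries (3.66% ± 3.57, SD, n = 3). A count of 0 of 36 allows a share of up to 8.33% by 3 counts of the total, and the exact 95% upper limit is 9.74%. Every HFD library was above every LFD library, by a mean of 9.62 percentage points, and the exact two-sided permutation test gave p = 0.1, the smallest it can give. These shares rest on 8 and 2 Leydig cells, and the 20% is 1 cell of 5, with an exact 95% interval of 0.505 to 71.6%. The separation depends on the denominator. As a share of the barcodes of each library, Leydig cells were 0.0503, 0.0246 and 0.0135% in HFD replicates 1 to 3. In LFD replicates 1 to 3 they were 0.0151, 0 and 0.0174%, so by that measure the diets overlapped.

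**Figure D4:**
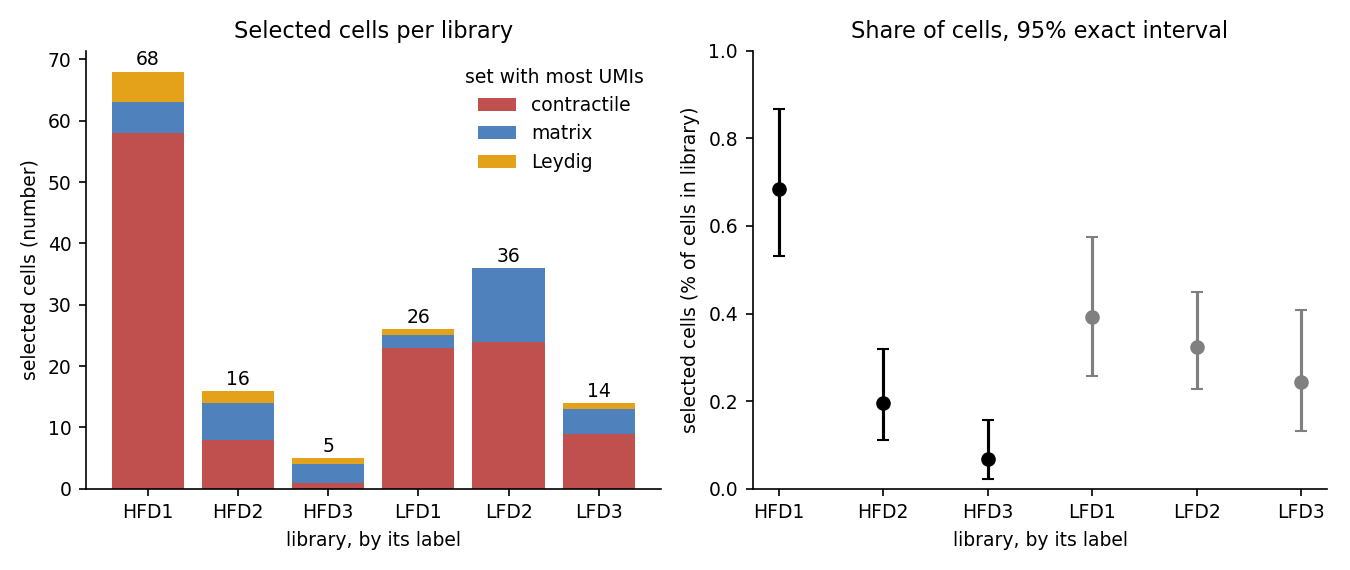
Left, number of selected cells per library, stacked by set (contractile, matrix, Leydig). Right, their percent of the library's barcodes (points) with exact 95% binomial intervals (bars). HFD replicate 1 has 68 cells and HFD replicate 3 has 5, and contractile cells are the majority in 4 of the libraries.

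Mitochondrially encoded mRNAs were compared because the study asked about transcription of the mitochondrial genome. They made up 4.10, 4.86 and 6.24% of the UMIs of the selected cells in HFD replicates 1 to 3 (mean 5.07% ± 1.08, SD, n = 3) and 5.67, 4.55 and 6.29% in LFD replicates 1 to 3 (5.50% ± 0.883, SD, n = 3). The diets overlapped, with a difference of −0.439 percentage points (exact two-sided permutation test, p = 0.7). It was −1.57 within the replicate 1 libraries and 0.128 within the other 4. Over the sets, the share was 4.49% in contractile, 4.56% in matrix and 7.51% in Leydig cells, against 2.57% in the remaining barcodes. Among the latter it was 11.1% in Sertoli-rule and 2.52% in macrophage-rule barcodes, so a high share was not particular to the selected cells.

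Gene by gene, the diet contrast was fitted on UMIs summed over the selected cells of each library. HFD replicate 3, with 5 cells, fell under the minimum of 10 and is not in the fit, so its values are given but not tested. No gene of 3628 passed an adjusted p of 0.05 (edgeR quasi-likelihood test, Benjamini-Hochberg adjustment), a share of 0%, the smallest adjusted p being 0.999. At an unadjusted p under 0.05 there were 90, and DESeq2 gave 0 calls and 54 at that unadjusted level. The 5 fitted libraries did not overlap between diets for 561 of the 3628 genes, or 15.5%. The median standard error of a gene was 0.405 on the log2 scale, so small changes were not detectable at this depth. Large differences in single genes did not pass either: Hsd3b6 had a log2 difference of 3.64 (SE 0.86) and Rgs5 of −7.94 (SE 1.96), each with adjusted p = 0.999 by edgeR. The remaining cells, in all 6 libraries, gave 0 calls of 20538 genes (0%), with 500 at an unadjusted p under 0.05 and 0 by DESeq2.

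Contractile genes were lower in HFD than in LFD for most members without passing the test. Acta2 was at 9925, 4805 and 4220 CPM in HFD replicates 1 to 3 and 12012, 8264 and 8198 CPM in LFD replicates 1 to 3, a log2 difference of −0.36 (SE 0.29, adjusted p = 0.999 by edgeR). HFD replicate 1 lies between the LFD libraries, and without HFD replicate 2 the difference was 0.13. Myh11 was at 1619, 1100 and 552 CPM against 2354, 2334 and 2398 CPM, a log2 difference of −0.79 (SE 0.25, adjusted p = 0.999 by edgeR). Over all selected cells no HFD library reached an LFD library. In contractile cells alone Myh11 was at 1856, 2079 and 2544 CPM against 2418, 3013 and 3914 CPM, so the diets overlapped. The 2544 CPM came from 1 cell, which had Rgs5. Of the 227 Myh11 UMIs in contractile cells of LFD replicate 3, 92 and 56 were in its 2 cells with Rgs5. Of the 14 tested genes of the contractile apparatus list, 13 were lower and 1 higher in HFD, and none passed the test. In the 5 fitted libraries, 6 of the 14 did not overlap between diets, against 15.5% of all genes tested. The median log2 difference was −0.39 against 0 over all genes. The contractile share of the cells differed between these libraries too (50% in HFD replicate 2 and 88.5% in LFD replicate 1), and its part in these values was not tested. With contractile cells alone, the median was −0.27.

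The list of immediate early and stress genes had the opposite sign. Of 20 tested, 19 were higher and 1 lower in HFD, with a median log2 difference of 0.51 and no call. In the 5 fitted libraries, 4 of the 20 did not overlap between diets, close to the 15.5% of all genes tested. Without Leydig cells the median was 0.39, and with contractile cells alone it was 0.32. Jun, which encodes a subunit of the AP-1 factor, was at 1753, 2669 and 1324 CPM in HFD replicates 1 to 3 and 1742, 1446 and 856 CPM in LFD replicates 1 to 3, with a log2 difference of 0.72 (SE 0.31, adjusted p = 0.999 by edgeR). For Jun, HFD replicate 3, which is outside the fit, lay within the range of the LFD libraries. Fos, another AP-1 subunit, overlapped between diets (2293, 2711 and 2538 against 2595, 2709 and 1310 CPM). These genes are known to respond to tissue dissociation, whose part here was not tested, and in all sets they were far above the remaining cells. They made up 1.26% of contractile, 2.28% of matrix and 0.81% of Leydig UMIs against 0.0334%, and 1.74% in macrophage-rule barcodes.

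Steroidogenic genes rested on few cells, since the fitted libraries held 5, 2, 1, 0 and 1 Leydig cells. Insl3 was at 645, 632 and 524 CPM in HFD replicates 1 to 3 and at 5.89, 0 and 3085 CPM in LFD replicates 1 to 3, a log2 difference of −0.66 (SE 1.55), and its highest value came from the single deep Leydig cell of LFD replicate 3. Without that library the direction turned and Insl3 was called as higher in HFD (adjusted p = 1.47e-05 by edgeR), with 1 Insl3 UMI left in the LFD libraries. Insl3 helped to choose the cells, so this call is not independent of the selection. Hsd3b6 had the smallest p of all genes tested, with 173, 390 and 1683 CPM against 11.8, 0 and 84.5 CPM (log2 difference 3.64, SE 0.86, adjusted p = 0.999 by edgeR, and 0.00318 without LFD replicate 3). All 61 of its UMIs in HFD replicate 3 were in the matrix cell with both kinds of marker, and 51 of 55 in HFD replicate 2 were in the Leydig cell with 23631 UMIs. The list of the steroidogenic pathway had 10 tested genes, of which 9 were higher and 1 lower in HFD, with a median of 0.26 and no call. Without the Leydig cells that median was −0.08. The 3 tested genes of cholesterol synthesis were all higher, with a median of 0.86 that became 0.26 without Leydig cells.

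The other lists gave no call either. Of 18 matrix genes tested, 3 were higher and 15 lower (median −0.16). Of 11 genes of lipid handling and PPAR targets, 9 were higher and 2 lower (median 0.28, and −0.04 in contractile cells alone). All 12 tested mitochondrial mRNAs were lower (median −0.35). In the 5 fitted libraries, 3 of the 12 did not overlap between diets, against 15.5% of all genes tested. Of the 13 genes that chose the cells, 12 were tested for diet, and their levels also depend on which cells the rule took. Dcn was at 760, 5721 and 2869 CPM in HFD replicates 1 to 3 and 512, 3016 and 1954 CPM in LFD replicates 1 to 3, with a log2 difference of 0.83 (SE 0.72), and the diets overlapped. Without HFD replicate 2 the difference was −1.20 (SE 0.58). Igfbp7 was even, from 1986 to 2566 CPM over all 6 libraries.

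**Figure D5:**
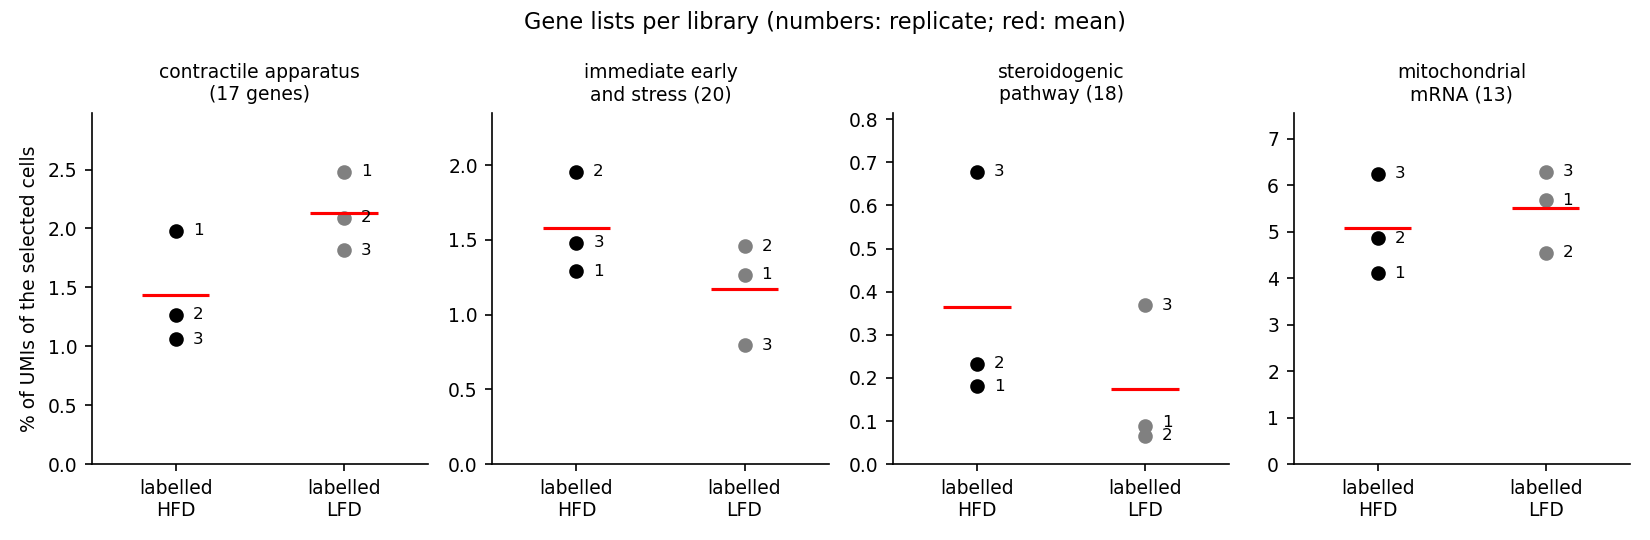
Percent of the UMIs of the selected cells (y axis) from the genes of 4 lists in each library (points numbered by replicate), by labelled diet (x axis), with the mean of each diet as a red line. HFD replicate 3, which is outside the gene fit, is shown, and the HFD and LFD points overlap in every list.

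The fit was repeated with contractile cells alone, a choice made after the data were seen. The minimum of 10 cells was not kept in it, since HFD replicate 2 had 8 contractile cells and LFD replicate 3 had 9. It called 6 of 3580 genes (0.168%). Crip1 was lower in HFD by a log2 difference of −5.18 (SE 0.77, adjusted p = 1.51e-05), Mustn1 by −3.05 (SE 0.60, adjusted p = 0.0028), Tm4sf1 by −3.59 (SE 0.71, adjusted p = 0.0028) and Sparcl1 by −1.60 (SE 0.37, adjusted p = 0.0294). Rgs5 (adjusted p = 0.000275) had no UMI in the contractile cells of HFD replicates 1 and 2 against 118 CPM (50 UMIs) in the LFD libraries, at least 20.6-fold lower against a floor of 3 counts over the group.

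Most UMIs of these genes, Sparcl1 apart, lay in the cells with Rgs5. The 5 contractile cells with Rgs5 held 93.8% of the Crip1, 82.3% of the Tm4sf1, 81.7% of the Mustn1 and 37.3% of the Sparcl1 UMIs of all contractile cells. Of the 5, 4 were in LFD replicates 2 and 3. The other was the only contractile cell of HFD replicate 3, which is outside the fit, and LFD replicate 1 had none. Crip1 in contractile cells was at 11.2, 0 and 2544 CPM in HFD replicates 1 to 3 and at 12.3, 280 and 1035 CPM in LFD replicates 1 to 3, so the libraries with an Rgs5 cell were high and the others low. Over all selected cells Crip1 was not called (log2 difference −4.10, SE 1.15, adjusted p = 0.999 by edgeR), and Rgs5 was at least 28.5-fold lower in HFD replicates 1 and 2, with no call.

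The only rising call was Fam209 (log2 difference 2.04, SE 0.46, adjusted p = 0.0264). Of its 118 UMIs in the contractile cells of HFD replicate 1, 88 were in its 2 largest cells, with 36311 and 33661 UMIs. Both were among the highest Scrublet scores, as were 7 selected cells in all, every one in HFD replicate 1. Another of these had 18656 UMIs, 1376 of them Prm1, and 14.8% of its UMIs from germ cell genes.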

How the data were processed

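Testes of 6 mice were profiled with the droplet platform of 10x Genomics. The authors aligned reads to mm10 and made the UMI counts with Cell Ranger 6.0.1, per the labels. The deposited matrices hold raw counts for 32285 genes in 48939 barcodes called as cells, 0 of them under 1000 UMIs, and each column was used. The labels and the methods differ on the version of the 3′ kit. Samples were grouped by the diet in their titles. Members, gene lists and tests were chosen with earlier results of these data known.

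UMI counts were summed per library over the selected cells. They were tested with edgeR 4.0.16 (R 4.3.3, quasi-likelihood, TMM, default low-count filter, Benjamini-Hochberg over all genes tested, an adjusted p under 0.05 being a call), with DESeq2 1.42.0 as an alternative. The planned fit needed at least 10 selected cells in each library, which HFD replicate 3 did not have, so 5 libraries were fitted. Fits planned within Leydig cells, and within contractile and matrix cells together, needed 20 per library and were not run. Fits on all 6 libraries, without Leydig cells and on contractile cells alone, with the same choice for the mitochondrial share, were chosen after the data were seen. Shares were compared by exact permutation tests over libraries. With 1 mouse per library and 3 per diet, p-values measure the spread between these libraries.

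Genes were named if they were in the rule or in a list, or if they were among the 12 with the highest median ratio of selected to remaining cells (offset 5 CPM, at least 100 UMIs), among the 8 in each direction with the largest ratio between Leydig and other selected cells, among up to 8 calls in each direction or, with no call, the 3 smallest p. No doublets were removed. As an alternative the highest Scrublet scores (scanpy 1.11.5) were left out at a rate of 0.8% per 1000 barcodes, 3356 barcodes in all. Sertoli, macrophage and endothelial rules had the same form with 14, 13 and 11 genes. The count tests were tested on data simulated for the 5 fitted libraries with a common dispersion. Of 200 changed genes, drawn from the more abundant, 6% were recovered at a log2 change of 1 (1 false call) and 88.5% at 2 (6 false calls). Apart from the change, each gene had the same mean in all simulated libraries. Uneven numbers of Leydig cells or of cells with Rgs5 were thus not simulated, and these rates do not cover their genes. Promoter sequences were from RefSeq (GRCm38.p6), which had an entry for 7 of the 13 genes. Intervals are exact at 95%. Python 3.11.15, numpy 2.4.6, scipy 1.17.1 and pandas 2.3.3 were used.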

Additional observations from a re-analysis of the deposited data

Results flagged for a closer look

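Outside the selected cells, a signal of Leydig genes appeared in very large barcodes of LFD replicate 2. In that library, 4 barcodes with 262539, 349605, 310495 and 287604 UMIs were not selected, because the 13 genes made up less than 0.3% of their UMIs, yet they held 117, 42, 40 and 18 UMIs of the 5 steroidogenic genes of the rule, 217 in all. This was 446, 120, 129 and 62.6 CPM, and it included 40, 21, 21 and 6 UMIs of Insl3. The same barcodes held 142 to 195 UMIs of the Sertoli gene Clu and 1329 to 1864 of Prm1. In LFD replicate 2, 31 barcodes had more than 100000 UMIs and held 225 of the 465 UMIs of these genes outside the selected cells, or 48.4%. In the other 5 libraries such barcodes held 0.338 to 7.20%, and 0 of them had 10 or more. LFD replicate 2 is also the library with no Leydig cell among its 36 selected cells. Whether these barcodes hold several cells was not tested.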

How the results depend on the processing

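The Leydig share of the selected cells kept its direction under all 15 alternatives (1.22 to 16.3 percentage points, 6.26 to 12.6 without each library in turn, exact permutation p from 0.1 to 1 where a test was possible). None of these took barcodes as the denominator, where the diets overlapped. The difference in the share of selected cells changed sign with a minimum of 2000 UMIs (0.0319), at least 4 genes (0.00708), at least 0.6% (0.00766), at least 1% (0.00166) and within replicate 1 (0.292), and it ran from −0.188 (without HFD replicate 1) to 0.121 (without HFD replicate 3) when each library was left out, so it rests on single libraries. The mitochondrial difference changed sign at 1% (0.0760) and within the other 4 libraries (0.128), and ran from −1.03 to 0.0430 without each library, the latter without HFD replicate 1. It was −1.27 without cells that passed the Sertoli or macrophage rule (exact permutation p = 0.1), −1.29 as a mean over cells and −1.02 in contractile cells.

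The 0 calls in selected cells became 18 without a low-count filter (8 up, 10 down), 5 without cells that passed the Sertoli or macrophage rule (Ptgds, Lcn2, Insl3, Cyp11a1 and Cyp17a1, all up), 23 without the replicate 1 libraries (8 up, 15 down, in 3 libraries), 6 in contractile cells and 0 to 17 without each library in turn (17 without LFD replicate 3, all up, and 1 each without HFD replicate 1 and LFD replicate 1). Where an HFD replicate or both replicate 1 libraries were left out, a lone HFD library remained and was assumed to vary like the LFD libraries. Insl3, Cyp11a1 and Cyp17a1 helped to choose the cells, so their calls are not independent of the selection. The Leydig cell of LFD replicate 3 with 21114 UMIs passed the Sertoli rule. It was thus absent from the fit with 5 calls, as from the fit without LFD replicate 3. The Sertoli rule also took out cells of HFD replicates 1 and 2. In both fits the only Leydig cell left in the LFD libraries had 1501 UMIs, with 3 of Lcn2 against 207 in the absent cell. HFD replicate 3 was in none of these fits but that on all 6 libraries, which called 0 of 2929. Replicate numbers are shared by the diets. Deviations of same-numbered libraries correlated at 0.363, 0.00929 and 0.264 for replicates 1 to 3, and those of differently numbered libraries at −0.331 to 0.0771. Replicates 1 and 3 thus resembled each other across diets more than any differently numbered libraries did, and the reason was not tested. With a replicate block there were 21 calls (20 up, 1 down), and in the remaining cells 110 (10 up, 100 down). The remaining cells gave 1 call with replicate 1 as a term and 0 to 2 without each library (2 without HFD replicate 1). The causes were not tested. With 5 to 68 cells per library, gene changes within the Leydig or the matrix cells alone were not tested.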

Other observations

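The lists of lipid handling and redox genes were unevenly spread over the sets. Lipid handling and PPAR target genes made up 0.724% of Leydig UMIs, 0.658% of matrix UMIs and 0.198% of contractile UMIs. In matrix cells this was mostly Apoe. In Leydig cells Apoe was at 2532 CPM and the acyl-CoA dehydrogenases Acadl and Acadm at 579 and 393 CPM. Redox genes made up 1.48% of Leydig UMIs against 0.748% in contractile and 0.638% in matrix cells, led by the glutathione transferases Gstm1 (5259 CPM) and Gstm2 (2118 CPM) and the peroxiredoxin Prdx1 (1591 CPM).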
